A study of Rattus norvegicus with 9 samples.

Results

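Genes of the Wnt pathway were followed in cultured rat synovial fibroblasts, which build and maintain the lining of joints. The members were named one by one, 10 gene symbols in all, and 9 of them were found among the 17298 genes of the deposited table. They are 6 genes of secreted Wnt antagonists (Sfrp1, Sfrp2, Sfrp4, Frzb, Dkk3 and Wif1), 1 Wnt ligand (Wnt5a) and 2 genes that Wnt signalling is known to induce (Wisp1, listed in RefSeq as Ccn4, and Axin2). The last pair are neither ligands nor antagonists, and Axin2 encodes a cytoplasmic protein. Dkk2 was not analysed here.

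The 3 groups had 3 libraries each, all labelled as wild type. The control group was in routine culture without IL-1β, an inflammatory cytokine. The second group received IL-1β. The third was stimulated with IL-1β and then shared a transwell with dermal fibroblasts, which sat in the upper chamber, apart from the synovial cells below. The sources used here do not give dose, duration, passage, age of the animals, whether IL-1β stayed in the medium during co-culture, or whether inserts without cells were used elsewhere. Co-culture without IL-1β was not analysed here, and within the third group dermal cells, insert and medium cannot be told apart. Whether a group's libraries stem from different animals or dishes is not stated, so a p-value speaks only of the spread among these libraries, possibly a technical one.

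Wnt proteins bind Frizzled receptors together with the co-receptors LRP5 and LRP6 and thereby stabilise β-catenin, which joins TCF/LEF factors on target genes. Secreted frizzled-related proteins (SFRPs, including Frzb) carry a Frizzled-like domain and bind Wnts outside the cell, as Wif1 does by another domain, whereas Dickkopf proteins act mostly on the co-receptors. In joints the balance of these proteins is known for its part in cartilage and bone upkeep and in the behaviour of the synovial lining.

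Promoter sequence from RefSeq (GRCr8) was matched by gene identifier for 5 of the 9 members. Those of 3 genes are shown because the 2 members that rose most by ratio with IL-1β among those matched, Sfrp2 and Wnt5a, can be set beside Axin2, the classical feedback target. Each run is the 250 bases before the annotated start, 5′ to 3′ on the gene's strand, at chr2:171387286-171387535 (plus strand), chr16:3703415-3703664 (plus strand) and chr10:94398535-94398784 (plus strand). These positions belong to the reference table and not to the build of the deposited values. Capitals mark C/EBP letters (TTGCNNAA) in Sfrp2 and Wnt5a and TCF/LEF core letters (CTTTGA) in Axin2.
Sfrp2: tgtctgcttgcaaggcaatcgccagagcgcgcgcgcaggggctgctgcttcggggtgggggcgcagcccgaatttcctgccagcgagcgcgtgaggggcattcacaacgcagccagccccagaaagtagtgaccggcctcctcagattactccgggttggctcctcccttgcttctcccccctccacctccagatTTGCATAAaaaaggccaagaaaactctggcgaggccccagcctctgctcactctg
Wnt5a: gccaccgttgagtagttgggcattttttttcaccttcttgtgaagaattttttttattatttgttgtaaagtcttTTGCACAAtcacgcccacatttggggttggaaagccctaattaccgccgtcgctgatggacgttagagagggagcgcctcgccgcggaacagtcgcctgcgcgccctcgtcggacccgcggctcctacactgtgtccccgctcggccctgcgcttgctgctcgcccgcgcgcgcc
Axin2: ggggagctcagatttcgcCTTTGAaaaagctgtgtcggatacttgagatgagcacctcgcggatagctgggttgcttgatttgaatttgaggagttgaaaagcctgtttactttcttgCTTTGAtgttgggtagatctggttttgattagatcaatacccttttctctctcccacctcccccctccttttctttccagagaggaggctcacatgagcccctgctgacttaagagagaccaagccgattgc
Sfrp2 and Wnt5a each held 1 match to TTGCNNAA, 55 and 175 bases before the start, and 9.22% of the 33465 promoter windows of this length held one. Axin2 held 2 matches to CTTTGA, 232 and 132 bases before the start, against 13.9% of windows with any. The windows were also searched for the NF-kB consensus (3.54% of all windows), TGANTCA of AP-1 (6.34%) and, on the gene's strand only, TATAAA (8.06%). The other 4 motifs were searched on both strands. None of the 3 windows shown held a match to the NF-kB consensus, TGANTCA or TATAAA. No 2 matches overlapped. These are matches of letters in 1 annotated start per gene and show no binding.

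The libraries separated by group, with rank correlations across genes of at least 0.9946 within a group and 0.9584 to 0.9912 between groups. Fibroblast markers were abundant as a sum in every library (10 of 10 measured, summed level 13090 to 13660 FPKM in control, 10900 to 11090 with IL-1β and 11930 to 12160 in co-culture), with Vim, Col1a1 and Lum the highest on average. Single markers did not share a direction. With IL-1β 5 were called higher and 5 lower (20.5% and 31.2% of all genes), Lum going from 1245 to 2430 FPKM and Vim from 4902 to 2114. Endothelial markers were near 0 (0 of 6 reached a mean of 1 FPKM, summed level 0.62 to 1.26 FPKM). Of the macrophage and leukocyte markers, 3 of 7 reached that mean, Cd14 (13.5 FPKM in control, 22.7 with IL-1β and 15.9 in co-culture), Lyz2 (10.7, 7.99 and 7.76) and Cd68 (2.30, 4.77 and 2.19), while Ptprc had a mean of 0.0811 FPKM over all libraries. Among 7 measured chondrocyte markers, the summed level was 203 to 217 FPKM in control, 26.4 to 28.8 with IL-1β and 85.6 to 88.3 in co-culture. The 5 measured pericyte and smooth muscle markers summed to 34.6 to 36.2, 13.6 to 16.3 and 31.1 to 32.8 FPKM in the same order, the 7 macrophage and leukocyte markers to 26.3 to 28.4, 35.6 to 39.7 and 26.2 to 28.2, and the 6 dermal fibroblast and skin markers to 31.3 to 40.04, 35.9 to 36.98 and 32.5 to 36.8. No measured marker of these lists was at 0 in all 9 libraries. In bulk RNA, fewer cells of a type and less RNA per cell cannot be told apart.

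In control cells the member with the highest level was Wisp1, at 19.8 ± 0.78 FPKM (fragments per kilobase of transcript and per unit of mapped fragments, mean ± SD, n = 3, as for all levels that follow). Sfrp2, Sfrp1 and Sfrp4 came next at 15.2 ± 0.34, 15.2 ± 0.36 and 14.9 ± 0.33 FPKM, within each other's spread. Wnt5a was at 6.85 ± 0.33, Dkk3 at 5.38 ± 0.10 and Frzb at 4.68 ± 0.34 FPKM. Wif1 (0.847 ± 0.1 FPKM) and Axin2 (0.327 ± 0.031 FPKM) lay below the mean of 1 FPKM over the 9 libraries that a gene needed to be tested, which left 7 members among 11372 genes. FPKM is scaled per length, but the stated genome build is a mouse one, which limits comparison of levels between genes more than comparison of the same gene between libraries.

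**Figure D1:**
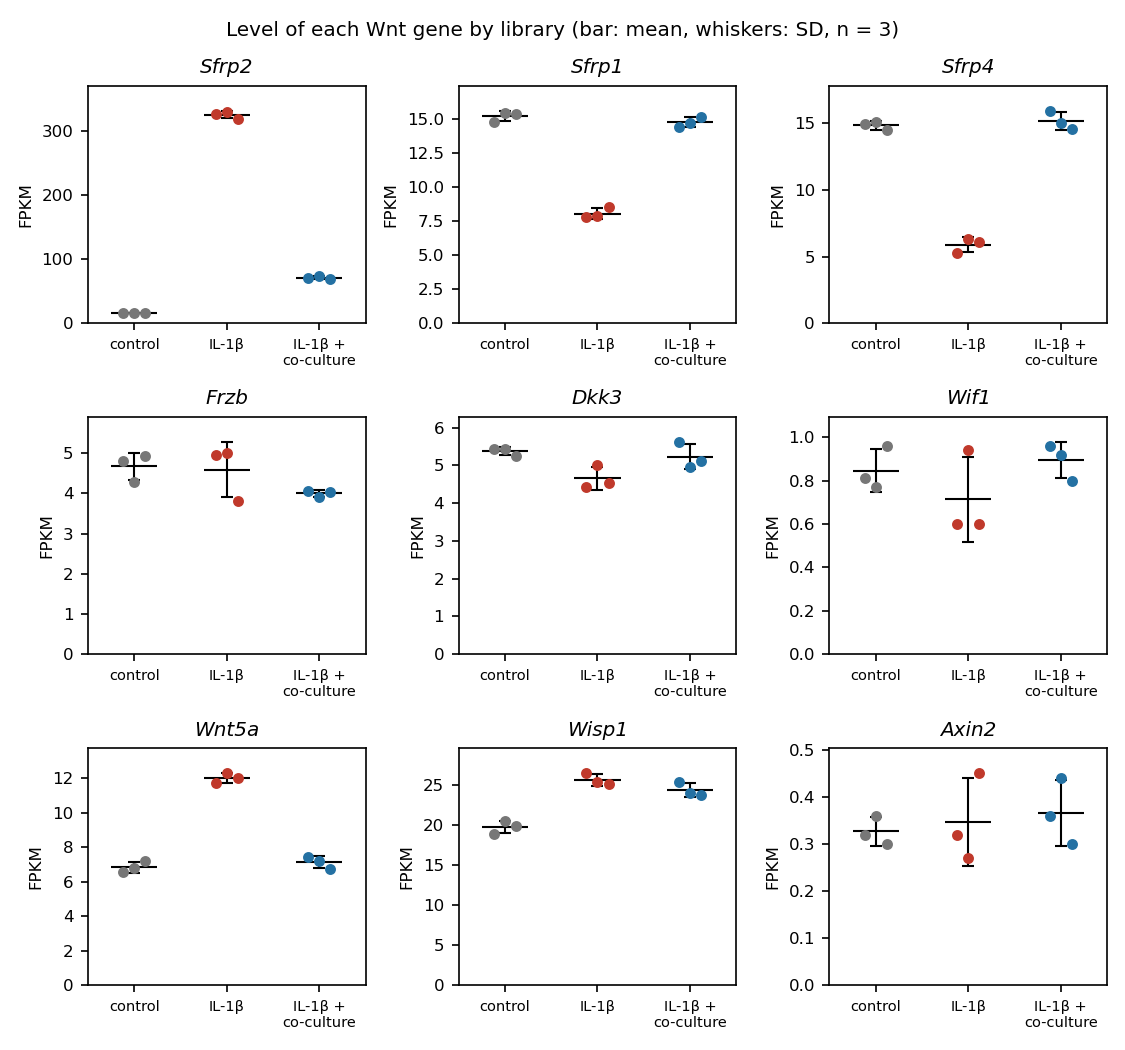
FPKM of each of the 9 measured genes (vertical axis, from 0, a scale of its own per gene) in the 3 libraries of each group, with the mean as a bar and the SD as whiskers. With IL-1β, Sfrp2 rose from 15.2 to 325 FPKM while Sfrp1 and Sfrp4 fell, and in co-culture Sfrp2 stood between the other groups at 70.9 FPKM.

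With IL-1β the SFRP genes moved in opposite directions and the ligand gene Wnt5a rose. Of the 7 tested members, 6 passed the threshold (limma adjusted p under 0.05), 3 higher and 3 lower, where 51.7% of all genes tested passed. The higher ones were Sfrp2, Wnt5a and Wisp1 (20.5% of all genes were called higher) and the lower ones Sfrp1, Sfrp4 and Dkk3 (31.2% called lower). The members' median log2 fold change was -0.027, beside -0.044 for all genes tested. Over all genes the calls were 2330 higher and 3544 lower, or 2961 and 2796 after median-of-ratios scaling. A change of at least 1 on the log2 scale was found for 2 members, Sfrp2 and Sfrp4, against 4.61% of all genes. The libraries of the 2 groups did not overlap for the same 6 members, as for 58.3% of all genes.

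Sfrp2 (gene ID 310552), whose protein binds Wnts and also acts on the matrix around fibroblasts, was at 15.0, 15.6 and 15.0 FPKM in the control libraries, 327, 329.8 and 319 with IL-1β, and 69.6, 73.7 and 69.4 in co-culture. The 3 groups were far apart and did not overlap. With IL-1β the ratio of mean FPKM was 21.4 and the log2 fold change 4.33 ± 0.03 (SE on the log2(FPKM + 1) scale, as for all that follow, limma adjusted p = 1.15e-15), the 25th largest rise among 11372 genes. The added 1 makes the log2 values understate changes of low genes. In co-culture it was 4.59-fold lower than with IL-1β alone (log2 fold change -2.18 ± 0.03, adjusted p = 5.54e-13). It remained 4.66-fold above control (2.15 ± 0.03, adjusted p = 3.31e-12), the 9th largest rise of that comparison.

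Sfrp1 (gene ID 84402), an SFRP that binds Wnts and Frizzled receptors, was at 14.8, 15.5 and 15.4 FPKM in control, 7.78, 7.84 and 8.52 with IL-1β, and 14.4, 14.8 and 15.1 in co-culture. The IL-1β libraries lay below all others, and the control and co-culture libraries overlapped. The log2 fold change was -0.84 ± 0.05 with IL-1β (limma adjusted p = 2.39e-08) and 0.80 ± 0.05 from IL-1β to co-culture (adjusted p = 6.75e-08). Between co-culture and control it was -0.04 (95% interval -0.14 to 0.06, adjusted p = 0.583).

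Sfrp4 (gene ID 89803), another member of the family, known for its role in bone, fell further. Its levels were 14.95, 15.2 and 14.5 FPKM in control, 5.25, 6.33 and 6.07 with IL-1β, and 15.9, 15.0 and 14.6 in co-culture. Again the IL-1β libraries were lowest without overlap, and the other groups overlapped. The log2 fold change with IL-1β was -1.21 ± 0.06 (limma adjusted p = 1.23e-08), and in co-culture the gene stood 1.24 ± 0.06 above IL-1β alone (adjusted p = 1.8e-08). Against control the Sfrp4 difference was 0.03 (95% interval -0.10 to 0.16, adjusted p = 0.794).

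Frzb (gene ID 295691), the SFRP first described in cartilage, did not pass in any comparison. It was at 4.81, 4.29 and 4.93 FPKM in control, 4.97, 5 and 3.81 with IL-1β, and 4.06, 3.90 and 4.04 in co-culture. All co-culture libraries lay below all control libraries, but the third IL-1β library was the lowest of the 9. The log2 fold changes were -0.03 with IL-1β (limma adjusted p = 0.811), -0.15 in co-culture against IL-1β (adjusted p = 0.155) and -0.18 against control (95% interval -0.37 to 0.01, adjusted p = 0.162). Without IL-1β replicate 3 the second of these was -0.26 (adjusted p = 0.00861).

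The make-up of the SFRP transcripts was described from the same FPKM values. The FPKM of Sfrp1, Sfrp2, Sfrp4 and Frzb summed to 49.6 to 50.5 in the control libraries, 338 to 349 with IL-1β and 103.2 to 107 in co-culture. Sfrp2 made up 30.5% ± 0.4 of this sum in control, 94.6% ± 0.15 with IL-1β and 67.6% ± 0.88 in co-culture. The other 3 genes together were at 34.8 ± 0.18 FPKM in control, 18.5 ± 0.6 with IL-1β and 33.9 ± 0.37 in co-culture, so the larger sum in co-culture than in control was that of Sfrp2. The share of Sfrp2 is a ratio within a library and is the same when a library is multiplied by any factor. Its groups did not overlap in any comparison, each with an exact two-sided permutation p = 0.1, the smallest that 3 libraries against 3 allow.

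**Figure D2:**
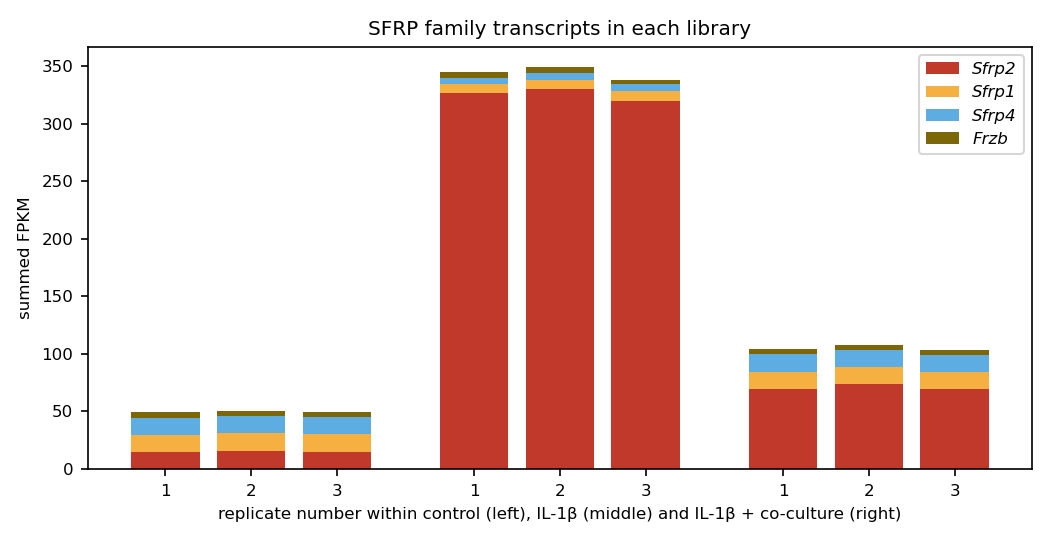
Summed FPKM of the 4 SFRP family genes (vertical axis) in each of the 9 libraries, stacked by gene. Sfrp2 takes 30.5% of the bar in control, 94.6% with IL-1β and 67.6% in co-culture.

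Dkk3 (gene ID 171548), a divergent Dickkopf, was at 5.43, 5.44 and 5.26 FPKM in control, 4.43, 5 and 4.54 with IL-1β, and 5.61, 4.96 and 5.13 in co-culture. The IL-1β libraries lay below control and overlapped co-culture. The log2 fold change with IL-1β was -0.17 ± 0.06 (limma adjusted p = 0.0285). That call was lost after median-of-ratios scaling (adjusted p = 0.0882), after quantile normalization (0.0701) and without control replicate 1 (0.0724), control replicate 2 (0.0745), IL-1β replicate 1 (0.0944) or IL-1β replicate 3 (0.0781). In co-culture it was 0.14 above IL-1β (adjusted p = 0.0701, but 0.0339 without IL-1β replicate 2 and 0.0488 without both the variance trend and robust moderation) and -0.03 from control (adjusted p = 0.739).

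Wif1 (gene ID 114557), the Wnt inhibitory factor, was listed at 0.81, 0.77 and 0.96 FPKM in control, 0.60, 0.94 and 0.60 with IL-1β, and 0.96, 0.92 and 0.80 in co-culture. All groups overlapped. Exact two-sided permutation tests gave p = 0.3, 0.3 and 0.8 for IL-1β against control, co-culture against IL-1β and co-culture against control. The depth is unknown, so the counting error of such low values cannot be given.

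Wnt5a (gene ID 64566), a ligand known mainly for signalling through ROR receptors without β-catenin, was at 6.56, 6.78 and 7.2 FPKM in control, 11.7, 12.3 and 12 with IL-1β, and 7.44, 7.21 and 6.76 in co-culture. The IL-1β libraries were above all others, and control and co-culture overlapped. The level rose 1.75-fold with IL-1β (log2 fold change 0.73 ± 0.05, limma adjusted p = 2.22e-07) and was 1.68-fold lower in co-culture (-0.68 ± 0.05, adjusted p = 7.08e-07). Co-culture differed from control by 0.05 (95% interval -0.06 to 0.16, adjusted p = 0.52). Per 100 FPKM of SFRP transcripts, Wnt5a stood at 13.7 ± 0.66 FPKM in control, 3.49 ± 0.08 with IL-1β and 6.81 ± 0.31 in co-culture, with no overlap (exact two-sided permutation p = 0.1 for each pair of groups). The level of the ligand gene was thus highest, and its level relative to the summed SFRP transcripts lowest, with IL-1β. That sum follows Sfrp2, which made up 94.6% of it with IL-1β. Without Sfrp2 the sum was 34.8 FPKM in control, 18.5 with IL-1β and 33.9 in co-culture. Relative to that remainder Wnt5a was highest, not lowest, with IL-1β.

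Wisp1 (gene ID 65154), a matricellular protein gene that β-catenin is known to induce, was at 18.9, 20.5 and 19.9 FPKM in control, 26.5, 25.4 and 25.1 with IL-1β, and 25.4, 24.1 and 23.8 in co-culture. Both IL-1β groups lay above control and overlapped each other. The log2 fold change was 0.36 ± 0.04 with IL-1β (limma adjusted p = 2.36e-05) and 0.29 ± 0.04 in co-culture against control (adjusted p = 0.000541). Co-culture and IL-1β alone differed by -0.07 (95% interval -0.16 to 0.03, adjusted p = 0.216), or by -0.13 after median-of-ratios scaling (adjusted p = 0.0254) and -0.12 after quantile normalization (0.0415).

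Axin2 (gene ID 29134), the negative feedback gene whose promoter letters are printed above, was listed at 0.32, 0.36 and 0.30 FPKM in control, 0.32, 0.27 and 0.45 with IL-1β, and 0.36, 0.44 and 0.30 in co-culture. The groups overlapped throughout, with exact two-sided permutation p = 0.9, 0.8 and 0.7 in the order given for Wif1.

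In co-culture against IL-1β alone, 4 of the 7 tested members passed, Sfrp1 and Sfrp4 higher and Sfrp2 and Wnt5a lower. The share of all genes that passed was 50% (33.3% higher, 16.7% lower), so the count is near the background. These 4 are also the members without overlap between the groups (56.7% of all genes), and the change was at least 1 for Sfrp2 and Sfrp4 (2.62% of all genes). The members' median was -0.067, beside 0.062 for all genes. Over all genes the calls were 3786 higher and 1901 lower, or 2701 and 2656 after median-of-ratios scaling. Against control, 2 of the 7 members passed in co-culture, Sfrp2 and Wisp1, both higher. Of all genes 20.3% passed there, and 12.4% were called higher and 7.91% lower. Frzb joined these 2 as a member without overlap (37.8% of all genes), and Sfrp2 was the member with a change of at least 1 (0.422% of all genes). The members' median was 0.028 there, beside 0.018 for all genes. The calls over all genes were 1408 higher and 899 lower, or 1008 and 1166 after quantile normalization. The comparisons share libraries, so they are not independent. On the log2 scale, 49.6% of the IL-1β change of Sfrp2 was left in co-culture and 81.4% of that of Wisp1. The share was 19.6% for Dkk3, whose IL-1β call was lost under several settings, 7.17% for Wnt5a, 4.83% for Sfrp1 and -2.31% for Sfrp4. No error was computed for these shares, and they depend on the scale. In FPKM, Sfrp2 was at 15.2 in control, 325 with IL-1β and 70.9 in co-culture.

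**Figure D3:**
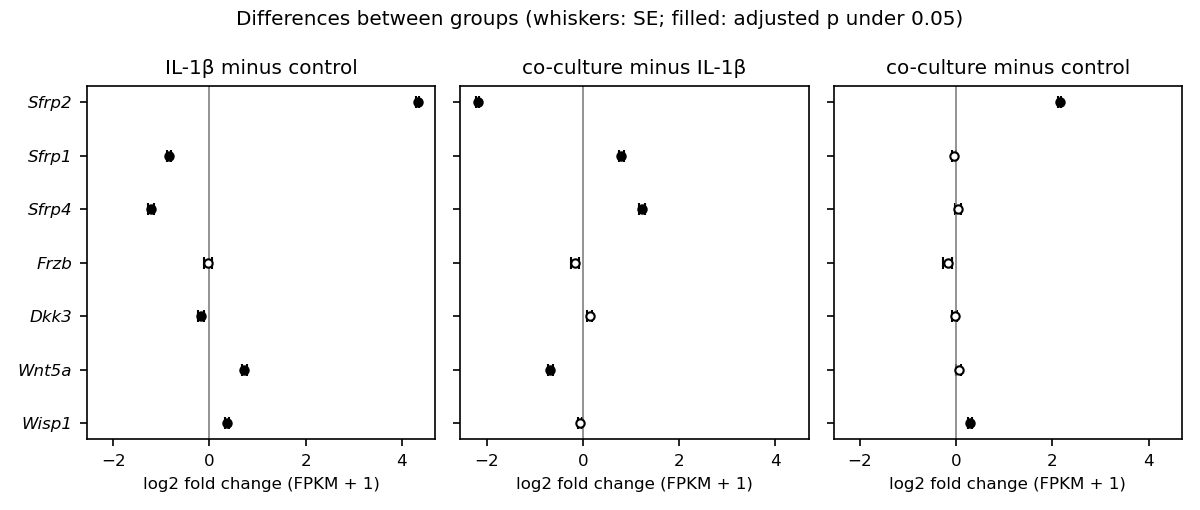
Log2 fold changes on the log2(FPKM + 1) scale (horizontal axis) of the 7 tested genes in the 3 comparisons, with SE as whiskers, which are mostly narrower than the points. Filled points passed an adjusted p of 0.05. Sfrp2 is at 4.33, -2.18 and 2.15, and Sfrp1 and Sfrp4 lie near 0 in co-culture against control.

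Other genes of the pathway were taken from lists by role. Of 15 Wnt ligand genes in the table, only Wnt5a and Wnt5b reached a mean of 1 FPKM, and 8 had a mean below 0.1 FPKM. Wnt5b, a close relative of Wnt5a, was at 1.35 ± 0.19 FPKM in control, 1.08 ± 0.28 with IL-1β and 1.09 ± 0.24 in co-culture, and passed in no comparison (limma adjusted p = 0.232, 0.945 and 0.363). Beside the members, Dkk4 was the only other antagonist gene tested, at 2.72 ± 0.12, 2.58 ± 0.3 and 2.81 ± 0.24 FPKM (adjusted p = 0.543, 0.349 and 0.816). Wls, needed for Wnt secretion, fell from 101.7 ± 1.55 to 80.98 ± 1.92 FPKM with IL-1β (log2 fold change -0.32, adjusted p = 3.15e-06). In co-culture Wls was at 93.04 ± 1.99 FPKM, below control (-0.13, limma adjusted p = 0.0122, but 0.0516 without co-culture replicate 2). Porcn, which acylates Wnts, did not pass with IL-1β (0.14, adjusted p = 0.208, but 0.0172 without IL-1β replicate 3).

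R-spondins enhance Wnt signals through LGR receptors. With IL-1β, 3 of the 3 tested genes of that list were lower, beside 31.2% of all genes, with a median of -1.28. Lgr4 fell from 28.1 ± 0.9 to 9.53 ± 0.46 FPKM (log2 fold change -1.47 ± 0.05, limma adjusted p = 3.96e-10) and Lgr5 from 11.8 ± 0.29 to 4.25 ± 0.31 FPKM (-1.28 ± 0.05, adjusted p = 1.81e-09). Rspo1 went from 3.64 ± 0.81 to 2.54 ± 0.31 FPKM (-0.38, adjusted p = 0.0313), a call lost without the filter (0.0578), after quantile normalization (0.0587) and without control replicate 1 (0.0744), control replicate 2 (0.115), IL-1β replicate 1 (0.109) or IL-1β replicate 3 (0.0631). In co-culture all 3 were higher than with IL-1β alone (33.3% of all genes were), Lgr4 at 20.4 ± 1.08 and Lgr5 at 7.94 ± 0.13 FPKM. Against control these 2 receptors remained lower (log2 fold changes -0.44 and -0.51, adjusted p = 8.19e-05 and 3.64e-05), whereas Sfrp1 and Sfrp4 did not pass there. The difference between these genes was not tested.

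Of 14 tested Frizzled receptor and co-receptor genes, 1 was higher and 6 lower with IL-1β, which at 50% is near the background of 51.7%. The higher one was Fzd1, the Frizzled gene with the highest level, from 121 ± 0.93 to 208 ± 3.25 FPKM (log2 fold change 0.77 ± 0.03, limma adjusted p = 5.18e-10), and in co-culture it was at 128 ± 2.47 FPKM. Fzd2 fell from 41.1 ± 1.21 to 20.5 ± 1.88 FPKM (-0.97, adjusted p = 6.02e-08), the co-receptor gene Lrp6 from 23.4 ± 0.43 to 16.2 ± 0.19 FPKM (-0.50, adjusted p = 1.26e-06), and Ror1, of the receptor family that Wnt5a uses, from 2.32 ± 0.39 to 0.67 ± 0.09 FPKM (-0.99, adjusted p = 4.59e-06). Ror2 of the same family had a higher level, 15.9 ± 0.62 FPKM in control, 14.7 ± 0.32 with IL-1β and 15.3 ± 0.58 in co-culture. It passed in no comparison (limma log2 fold change with IL-1β -0.11, adjusted p = 0.0528, then 0.319 against IL-1β and 0.421 against control in co-culture). Lrp5, a co-receptor gene like Lrp6, was at 16.37 ± 0.47 FPKM in control and 16.45 ± 1.2 with IL-1β (limma adjusted p = 0.948). In co-culture Lrp5 was at 18.28 ± 0.41 FPKM, higher than with IL-1β alone (adjusted p = 0.032). Ryk, another Wnt receptor gene, was at 107.8, 111 and 107.5 FPKM in the 3 groups and did not pass with IL-1β (adjusted p = 0.311, but 0.0458 after median-of-ratios scaling). Ptk7, a co-receptor gene, was at 58.6 ± 2.23 FPKM in control, 50.3 ± 1.59 with IL-1β and 63.1 ± 0.44 in co-culture, lower with IL-1β (-0.22, adjusted p = 0.000361) and higher in co-culture than with IL-1β alone (0.32, adjusted p = 1.96e-05). In co-culture against IL-1β alone, 7 of the 14 receptor genes were higher and 1 lower, 57.1% beside 50% of all genes (33.3% higher, 16.7% lower).

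Among 23 tested transducer genes, 5 were higher and 9 lower with IL-1β (60.9%, beside 51.7% of all genes). The β-catenin gene Ctnnb1 differed little, 174.8 ± 2.27 FPKM in control, 163.7 ± 3.7 with IL-1β and 175.9 ± 1.71 in co-culture (log2 fold change with IL-1β -0.09, limma adjusted p = 0.013, but 0.186 after median-of-ratios scaling). The TCF factor genes moved more. Tcf7 fell from 3.93 ± 0.18 to 1.60 ± 0.26 FPKM with IL-1β (-0.93, adjusted p = 2.2e-06) and Tcf7l2 from 9.34 ± 0.55 to 5.30 ± 0.18 FPKM (-0.71, adjusted p = 3.41e-07), and in co-culture they were at 3.04 ± 0.29 and 8.13 ± 0.2 FPKM, both higher than with IL-1β alone (adjusted p = 6.42e-05 and 6.19e-06). Dvl2, a Dishevelled gene, and Ctnnbip1, whose protein keeps β-catenin from TCF factors, were also lower with IL-1β (limma log2 fold changes -0.45 and -0.40, adjusted p = 1.44e-05 and 8.17e-05). Both were higher in co-culture than with IL-1β alone (0.31 and 0.47, adjusted p = 0.000329 and 2.67e-05). The Dishevelled genes Dvl1 (16.27 to 15.15 FPKM) and Dvl3 (15.68 to 15.6 FPKM) did not pass with IL-1β (limma adjusted p = 0.0624 and 0.904).

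The casein kinase genes of the transducer list did not share a direction. Csnk1e was higher with IL-1β (15.1 ± 1.02 to 18.5 ± 1.22 FPKM, log2 fold change 0.27, limma adjusted p = 0.00166). Csnk1d was higher by 0.11 (51.7 ± 1.11 to 56.1 ± 1.88 FPKM, adjusted p = 0.0146), a call lost without control replicate 3 (0.0529) or IL-1β replicate 1 (0.0545). Csnk1a1 was lower by a log2 fold change of -0.09 (154.6 ± 1.81 to 145.7 ± 2.85 FPKM, adjusted p = 0.0424), a call lost under 9 other settings, after median-of-ratios scaling among them (0.422).

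Of 10 tested feedback and target genes, Wisp1 among them, 3 were higher and 6 lower with IL-1β, 90% beside 51.7% of all genes, so targets did not share a direction. Lgr5 and Tcf7, given above, are also in this list, so these 2 lower calls are counted in 2 lists. Wisp2, a CCN family relative of Wisp1, went the opposite way from it. Its levels were 119, 118.5 and 116 FPKM in control, 25.5, 23.9 and 22.8 with IL-1β, and 63.4, 64.8 and 57.7 in co-culture. The groups did not overlap. The log2 fold change with IL-1β was -2.25 ± 0.05 (limma adjusted p = 5.68e-12), the 17th largest fall among 11372 genes, and against control it was -0.92 ± 0.05 in co-culture (adjusted p = 1.6e-07). Bambi, a pseudoreceptor gene of TGF-β signalling that is also a Wnt target, rose from 6.2 ± 1.39 to 15.9 ± 0.94 FPKM with IL-1β (1.24 ± 0.12, adjusted p = 1.09e-05) and was at 6.11 ± 0.38 FPKM in co-culture. Myc fell by 0.28 on the log2 scale with IL-1β (adjusted p = 7.56e-05) and Nkd2 by 0.54 (adjusted p = 7.98e-05). In co-culture Nkd2 remained below control (-0.40, limma adjusted p = 0.0027). The cyclin gene Ccnd1 was at 129, 132 and 141 FPKM (with IL-1β 0.04, adjusted p = 0.21, but 0.00885 after median-of-ratios scaling). Of the 10 target genes, 3 were higher and 4 lower in co-culture than in control, 70% beside 20.3% of all genes.

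Levels of chondrocyte markers were lower with IL-1β, as were Sfrp1, Sfrp4, the LGR genes and Wisp2. Col2a1 had a mean of 156.9 FPKM in control, 18.1 with IL-1β and 56.4 in co-culture, Acan 24.1, 2.22 and 13.3, and Comp 12.1, 2.29 and 5.29. With IL-1β 6 of the 7 tested chondrocyte markers were lower and none higher, beside 31.2% of all genes called lower. In co-culture against control 6 of the 7 were also lower (7.91% of all genes were), as were the LGR genes and Wisp2, whereas Sfrp1 and Sfrp4 did not pass there. With IL-1β 4 of 5 pericyte and smooth muscle markers were lower, beside the same 31.2% of all genes. Those with the highest means were Des (14.4 FPKM in control, 3.55 with IL-1β and 13.0 in co-culture), Cspg4 (8.77, 2.77 and 6.72) and Cnn1 (6.23, 3.71 and 5.61). The dermal fibroblast and skin marker genes En1, at 3.58, 12.6 and 5.46 FPKM, and Lrig1, at 1.96, 5.51 and 2.74 FPKM, were highest with IL-1β, as were Sfrp2 and Wnt5a, whereas Crabp1 of the same list was at 28, 15.7 and 22.9 FPKM. Of the 5 tested markers of that list, 2 were higher, 1 lower and 2 not called with IL-1β. Of all genes 20.5% were called higher and 31.2% lower there. In co-culture against control 2 of the 5 were higher and 0 lower, beside 12.4% and 7.91% of all genes. The part of these markers in the changes of the Wnt genes was not tested.

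**Figure D4:**
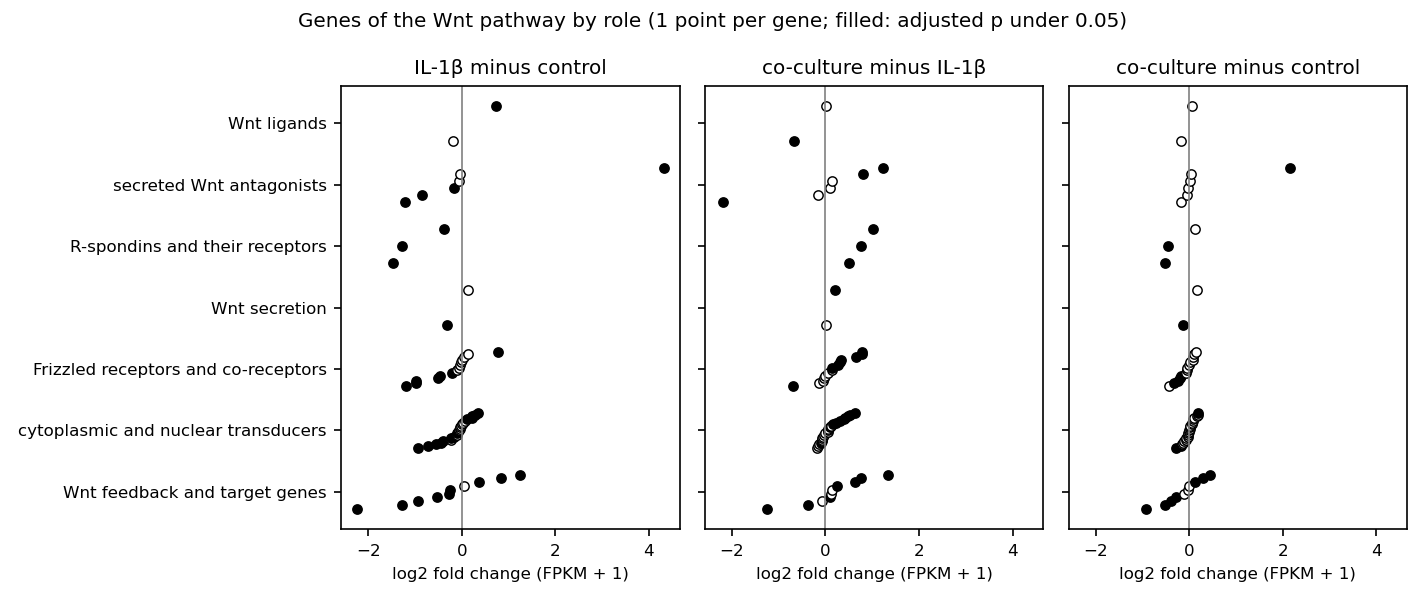
Log2 fold changes on the log2(FPKM + 1) scale (horizontal axis) of the tested Wnt pathway genes in 3 comparisons, grouped by role, with 1 point per gene, filled where the adjusted p was under 0.05. With IL-1β the 3 R-spondin and LGR genes all lie below 0, while the antagonists span from Sfrp4 at -1.21 to Sfrp2 at 4.33.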

How the data were processed

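The authors deposited FPKM (fragments adjusted for transcript length and library size), 1 column per library per the file headers, with 2 decimals. No source used here names the aligner, quantifier, annotation or strand setting. The genome build was GRCm38, a mouse one, per the submitters' processing notes, whereas 16152 of 17298 identifiers (93.4%) were found in the rat RefSeq table of GRCr8, as were 9 of 9 members. The FPKM sums were 679774 to 741810 per library. Depth is unknown: only 163 low genes had values in which whole-read steps could be looked for, and no relative depths were derived. No member shared all its values with a second gene.

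After a filter at a mean of 1 FPKM, limma 3.58.1 (R 4.3.3) was run on log2(FPKM + 1) over all 9 libraries, each group having its own coefficient, with a mean-variance trend and robust moderation. Two-sided p-values were adjusted by Benjamini-Hochberg over the 11372 genes that passed the filter, and calls were made at 0.05. Ratios are of mean FPKM. Intervals are 95%. Genes below the filter were tested by exact permutation, or by limma without the filter where stated. Beside the members, genes were named from each Wnt list as up to 3 genes with the smallest p per comparison and the 3 with the highest mean, and from each marker list with tested genes as the 3 with the highest mean. Genes outside this rule are Ptprc, named for its low level, and those of the other observations. Ror2, named beside Ror1, Lrp5 beside Lrp6, and Dvl1 and Dvl3 beside Dvl2 are outside it too. All these were chosen after their values were seen. Alternatives were the pseudocount, the filter, 2 scalings, 2-group fits, moderation, a replicate block and leaving out each library. The members and lists were chosen with earlier results of these data known.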

Additional observations from a re-analysis of the deposited data

How the results depend on the processing

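Under the 17 other settings tried, the calls of Sfrp1, Sfrp2, Sfrp4 and Wnt5a kept their side of the threshold and, where called, their direction in all 3 comparisons. The log2 fold change of Sfrp2 with IL-1β ranged from 4.284 to 4.408, that of Sfrp1 from -0.911 to -0.795, that of Sfrp4 from -1.327 to -1.14 and that of Wnt5a from 0.703 to 0.802. Over the 7 tested members, 343 values under another setting stayed on their side of the threshold, 6 lost a call and 5 gained one, and these 11 are those of Dkk3, Wisp1 and Frzb given in the report. The number of members called with IL-1β was 5 or 6 under each setting, in co-culture against IL-1β 4 or 5, and in co-culture against control 2. With a replicate block the counts were 6, 4 and 2 members and 5858, 5708 and 2227 of all genes. The replicate numbers share no stated source, and deviations of same-numbered libraries correlated at -0.046 to 0.189, so the numbers were not taken to pair the libraries. In 7 of 9 libraries the mean correlation was highest with the same number, a hint from the data and not from the design. The Sfrp2 share of SFRP transcripts with IL-1β was 94.35% after quantile normalization, against 94.61%. With a pseudocount of 0.1 the log2 difference of Wif1 was -0.24 with IL-1β and 0.311 in co-culture against IL-1β, in place of -0.113 and 0.149, and that of Axin2 in co-culture against control was 0.121 in place of 0.042. Counts over the Wnt lists under these settings were added after seeing the data. In co-culture against control, where 20.3% of all genes were called, 4 of 14 receptor genes were called (28.6%), but 1 to 6 under the other settings. Of 23 transducer genes 3 were called (13%), but 0 to 3 under the other settings. Of 10 target genes 7 were called (70%), and 4 to 7 under the other settings. With IL-1β, where 51.7% of all genes were called, 9 of 10 target genes were called, but 5 to 12 under the other settings. Of 2 ligand genes 1 was called, but 4 ligand genes without the filter. The number of genes tested changes with the filter. With limma's filter at a mean of 5 FPKM, Frzb could not be fitted. Precision rests on 3 libraries per group, since the depth is unknown, and Wif1, Axin2 and most Wnt ligand genes lie where FPKM values are coarse.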

Other observations

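Several Wnt genes near or below the filter are described here, all chosen after their values were seen. Wnt4, a ligand gene, was listed at 0.68, 1.05 and 0.87 FPKM in control, 0, 0.25 and 0.27 with IL-1β, and 0.19, 0.61 and 0.31 in co-culture. Wnt10b was at 0.26, 0.44 and 0.53 FPKM in control, 0.06, 0.03 and 0.13 with IL-1β, and 0.18, 0.29 and 0.35 in co-culture. Wnt9a was at 0.65, 0.54 and 0.48 FPKM in control, 0.30, 0.27 and 0.32 with IL-1β, and 0.65, 0.52 and 0.30 in co-culture. In each of these 3 ligand genes every IL-1β library lay below every control library, the opposite order to Wnt5a. Of all genes above the filter, 58.3% had no overlap between these groups in either direction. These 3 genes lie below the filter, so that share does not cover them. Fitted with limma without the filter, the log2 fold changes with IL-1β were -0.67 for Wnt4 (adjusted p = 0.00305), -0.39 for Wnt10b (0.00321) and -0.26 for Wnt9a (0.0331). Over all genes that fit called 2536 higher and 3805 lower. Wnt6 and Wnt11 had higher means with IL-1β than in control, and neither was called in it (limma adjusted p = 0.21 and 0.389).

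Lef1, a partner of β-catenin on DNA, followed the same order as the other TCF factor genes, at 0.797 ± 0.179 FPKM in control, 0.227 ± 0.074 with IL-1β and 0.42 ± 0.11 in co-culture (log2 fold change with IL-1β -0.55, limma adjusted p = 0.000843 without the filter). Fzd9 was at 0.49 ± 0.017 FPKM in control, 0.143 ± 0.031 with IL-1β and 0.167 ± 0.076 in co-culture. It was lower than control both with IL-1β (-0.38, adjusted p = 0.000199) and in co-culture (-0.35, adjusted p = 0.00141), and between co-culture and IL-1β it differed by 0.03 (adjusted p = 0.729). Fzd8, which passed the filter, was at 4.67, 3.43 and 4.55 FPKM in control, 0.66, 1.11 and 2.28 with IL-1β, and 2.91, 2.74 and 2.98 in co-culture. Its IL-1β libraries lay below all others, and its co-culture libraries lay below control. Of all genes, 58.3% had no overlap between IL-1β and control. The share was 56.7% between co-culture and IL-1β and 37.8% between co-culture and control. The log2 fold changes of Fzd8 were -1.20 with IL-1β (limma adjusted p = 0.00189), 0.78 in co-culture against IL-1β (0.018) and -0.42 against control (0.229). The counting error at these levels cannot be given, since the depth is unknown.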
